A study of Mus musculus with 16 samples.

Results

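The subunits of the oxidative phosphorylation machinery were followed in endothelial cells sorted from liver and lung of adult mice. Members were every entry of the liver and lung count tables whose symbol begins with mt-Nd, mt-Co, mt-Cytb, mt-Atp, Ndufa, Ndufb, Ndufc, Ndufs, Ndufv, Uqcr, Atp5 or any of Cox4 to Cox8. The rule took 101 of 37991 entries. Of these, 13 are encoded by mitochondrial DNA and 79 are nuclear genes of subunits, of which 36 belong to complex I, 8 to complex III, 20 to complex IV and 15 to complex V. Ndufa4 and its paralog Ndufa4l2 were counted with complex IV, where Ndufa4 is now placed. A further 4 entries (Ndufaf1 to Ndufaf4) are assembly factors of complex I. The other 5 (Cox4nb, Atp5s, Atp5sl, Atp5l-ps1 and Atp5l2) match the rule but were not counted as subunits, and are called other matches.

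The 16 libraries formed 4 groups of 4. Liver GOF and lung GOF mice carried the allele Rosa-Bcat-GOF/+ together with VE-Cadherin-CreERT2, a tamoxifen-dependent Cre recombinase under an endothelial promoter, which switches on activated beta-catenin, the effector of canonical Wnt signalling. Liver control and lung control mice carried Rosa-Bcat-GOF/+ without the Cre transgene, so all 4 groups held the activatable allele, and effects of the Cre transgene and of activated beta-catenin cannot be told apart. Any tamoxifen dose and timing are among the details not given in the sources used here. Libraries were lettered B, E, F and G in liver and B, E, F and D in lung, in both genotypes.

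Oxidative phosphorylation takes place at the inner mitochondrial membrane. Complex I (NADH dehydrogenase) and complex III (cytochrome bc1) pass electrons to complex IV (cytochrome c oxidase), which reduces oxygen, and the proton gradient that builds up drives complex V, the ATP synthase. Each of these complexes is a mosaic of subunits from the mitochondrial and the nuclear genome. Endothelial cells are known to draw much of their ATP from glycolysis and to keep comparatively few mitochondria.

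Total counts lay between 22815467 and 37127150 per library. The 12 endothelial markers, among them Pecam1 and Cdh5, summed to 14650 to 17300 CPM (read counts scaled to library size) in liver GOF, 14060 to 17150 CPM in liver control, 13100 to 19100 CPM in lung GOF and 14940 to 18980 CPM in lung control. Transcripts of other cells were present as well. The 15 hepatocyte markers summed to 742 to 1823 CPM in liver GOF and 850 to 4028 CPM in liver control, while lung libraries held at most 17.8 CPM. The alveolar type 2 markers, of which 9 of 10 were found in the tables, summed to 1991 to 12550 CPM in lung GOF and 1490 to 14250 CPM in lung control. In bulk libraries, fewer cells of a type and less RNA per cell cannot be told apart. Ctnnb1, the gene of beta-catenin, averaged 746 ± 69.4 CPM in liver GOF and 804 ± 86.9 CPM in liver control, and 672 ± 71.7 CPM in lung GOF and 683 ± 51.8 CPM in lung control (SD, n = 4 each). Its level overlapped between the genotypes in both tissues, so it does not check the genotype labels, and GOF here means the libraries so labelled.

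The mitochondrially encoded members fell into 2 sets by their counted level. Levels of different genes are compared as CPM per kilobase of transcript (CPM per kb). mt-Co1, the catalytic core of complex IV, was the highest member in all 4 groups, at 4254 CPM per kb in liver GOF, 4603 in liver control, 3500 in lung GOF and 3199 in lung control. mt-Cytb, the cytochrome b of complex III, followed at 1776, 2117, 1993 and 1930 CPM per kb in the same 4 groups. The complex I subunits then descended in the order mt-Nd1, mt-Nd2, mt-Nd4, mt-Nd5 and mt-Nd6, the last at 262 to 336 CPM per kb. The other 6 genes, mt-Co2, mt-Co3, mt-Atp6, mt-Atp8, mt-Nd3 and mt-Nd4l, stood at or near 0 in most libraries, and mt-Atp8 had no read in any of the 16. A count of 0 bears only on what was counted for that gene, not on its transcript.

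Copies of the mitochondrial genome in the nucleus carry near-identical sequence, and a read that fits several places can be lost from a gene count. Every 100-base window of each member was therefore searched in the other annotated transcripts of GENCODE M21. For mt-Co3, 99.9% of its windows also occurred in the pseudogene Gm28437, for mt-Atp6 99.5% in Gm10925, for mt-Co2 99.5% in Gm28661 or Gm13341, for mt-Nd4l 98.5% in Gm10222 and for mt-Nd3 97.6% in Gm28438. The share was 60.8% for mt-Nd4, 30.8% for mt-Co1 and 3.19% for mt-Nd2, and 0% for mt-Cytb, mt-Nd1, mt-Nd5 and mt-Nd6. mt-Atp8, with 0% shared and no read, stands apart from this pattern. Only annotated transcripts were searched, not the whole genome. A window from each of the cytochrome oxidase genes mt-Co2 (bases 293 to 392 of its transcript) and mt-Co3 (bases 343 to 442) is shown, 5′ to 3′ in the direction of the transcript, because these 100 bases stand unaltered in the named pseudogenes as well.
mt-Co2, also in Gm13341 and Gm28661: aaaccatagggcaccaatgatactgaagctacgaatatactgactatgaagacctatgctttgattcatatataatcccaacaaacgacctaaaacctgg
mt-Co3, also in Gm28437: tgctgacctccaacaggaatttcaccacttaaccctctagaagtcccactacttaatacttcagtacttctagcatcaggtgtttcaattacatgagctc

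Within the low set, single libraries stood far from the rest. mt-Atp6 had 729 reads (20.4 CPM) in liver control E and at most 0.26 CPM in the other liver controls. mt-Co3 had 344 reads (12.3 CPM) in liver GOF E and 717 reads (20.1 CPM) in liver control E, against at most 0.294 CPM in the other liver GOF and 0.583 CPM in the other liver control libraries. mt-Co2 had 351 reads (10.8 CPM) in lung GOF D and at most 1.74 CPM in the other lung GOF libraries. No single fold change of these 6 genes is read below as a difference between groups. mt-Nd6 lies on the strand opposite to the other mitochondrially encoded members. The strand setting of the counting was not stated, so reads of the opposite strand cannot be told apart in its count.

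**Figure D1:**
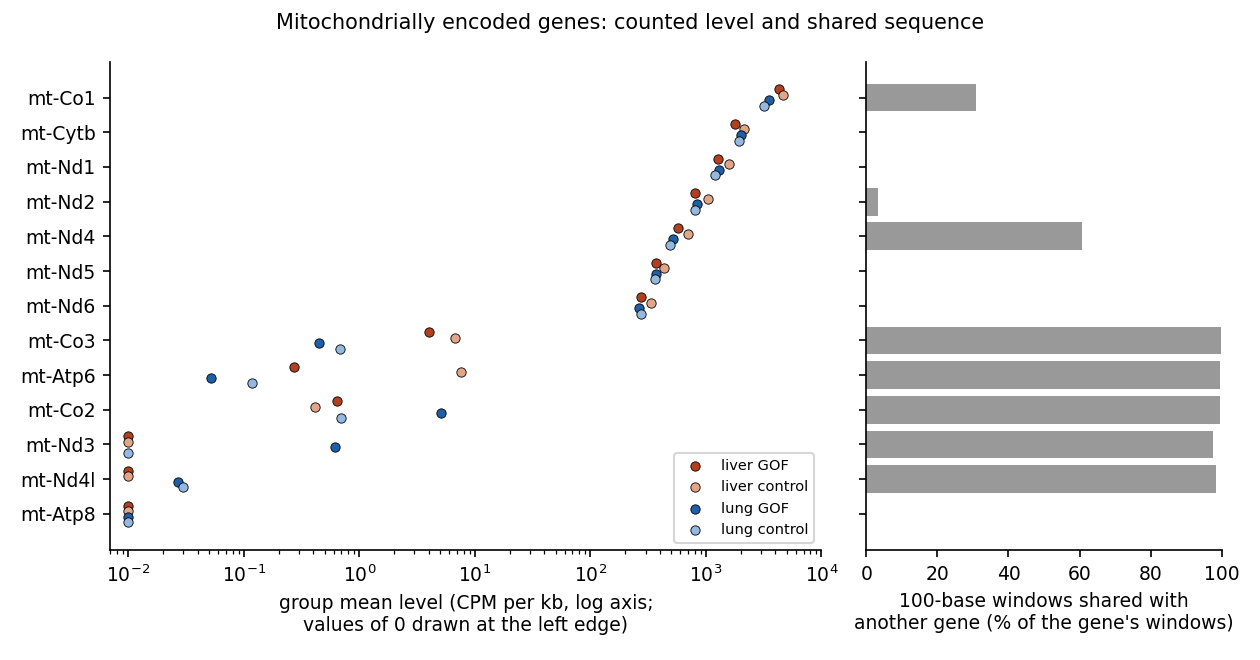
Left, group mean level of each mitochondrially encoded gene (CPM per kb, log axis, 1 point per group of 4 libraries, values of 0 drawn at the left edge); right, the percentage of its 100-base windows found in another annotated gene. Of the 6 genes at the bottom, 5 share over 97% of their windows, and mt-Atp8 shares none.

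The nuclear subunits spanned a wide range of levels, led by Cox6a1 and by Atp5b, the catalytic beta subunit of the ATP synthase. Atp5b stood at 298 CPM per kb in liver GOF, 293 in liver control, 308.5 in lung GOF and 285 in lung control. Cox4i1, the ubiquitous form of cytochrome oxidase subunit 4, stood at 266 CPM per kb in liver GOF, 298 in liver control, 278 in lung GOF and 260.3 in lung control. Cox8a, Ndufa4, Uqcrh, Atp5g3, Cox6b1 and Atp5a1, the alpha subunit of the ATP synthase, came next, Atp5a1 at 181 to 197 CPM per kb. Reads were present in all 16 libraries for 70 of the 79 nuclear subunits, and for all 36 of complex I. Ndufv1 and Ndufs1, core subunits of complex I that hold flavin and iron-sulphur clusters, stood lower per length than the 9 genes from Cox6a1 to Atp5a1 named here. Ndufv1 stood at 52.3 to 59.5 and Ndufs1 at 17.3 to 19.97 CPM per kb over the 4 group means. In complex III the core protein Uqcrc1 stood at 73.5 to 84.0 and the Rieske iron-sulphur protein Uqcrfs1 at 44.1 to 56.8 CPM per kb.

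Where a subunit has several isoforms, 1 form stood far above the others per length of transcript. Cox4i1 stood at 266 CPM per kb in liver GOF, 298 in liver control, 278 in lung GOF and 260.3 in lung control, whereas Cox4i2, a form known from lung and from smooth muscle cells, stood at 0.598, 1.77, 3.804 and 4.93 CPM per kb in the same groups. Cox6a1 stood at 282, 343, 297 and 280.0 CPM per kb, against 0.322, 0.0611, 7.41 and 2.47 CPM per kb for Cox6a2, the heart and skeletal muscle form. Both Cox4i2 and Cox6a2 thus had their 2 highest group means in lung. Cox6b1, at 181 to 224 CPM per kb, exceeded the testis form Cox6b2, whose group means lay between 2.58 and 9.75 CPM per kb. Cox7a2, at 119 to 154 CPM per kb, exceeded the muscle form Cox7a1, at 2.06 to 3.59, and the related supercomplex factor Cox7a2l stood at 119 to 162 CPM per kb. Cox8a stood at 239 to 308 CPM per kb, and the muscle form Cox8b at 0 to 1.12. Cox7b2 and Cox8c had no read in any library, beside 51.0 to 63.7 CPM per kb for Cox7b. Ndufa4 stood at 220.5 to 269 CPM per kb and its hypoxia-inducible paralog Ndufa4l2 at 0.356 to 1.11.

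The 3 genes of ATP synthase subunit c, which make the same mature protein, were counted very unequally. Atp5g3 stood at 178.5 CPM per kb in liver GOF, 210 in liver control, 220 in lung GOF and 214 in lung control, Atp5g1 at 1.58 to 2.47 over the groups, and Atp5g2 at 0.31 to 0.886. Shared sequence touches this comparison, since 34.7% of the windows of Atp5g2, 5.94% of those of Atp5g1 and 0% of those of Atp5g3 occurred in other annotated transcripts, such as the pseudogene Gm10039 for Atp5g1. The part of shared sequence in the low counts was not tested. Over all nuclear subunits, 31 of 79 shared at least 1 window, and 15 shared over 10%, among them Ndufa12 at 12.7% and Cox6c at 13.3%. The other gene with the most shared windows was a processed pseudogene, Gm15920, for Ndufa12 and the protein-coding Vps13b for Cox6c. The search did not tell copies elsewhere in the genome from transcripts that overlap at the same place.

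In liver endothelium, the respiratory chain genes lay slightly lower in GOF than in control, as a broad small shift in which no gene passed the unpaired test. The 13 mitochondrially encoded members summed to 9802, 17230, 12220 and 9793 CPM in liver GOF B, E, F and G, against 10320, 20080, 13980 and 11930 CPM in liver control B, E, F and G. The groups overlapped, and each GOF library lay below the control of its own letter, at 0.95, 0.858, 0.874 and 0.821 of it. The 79 nuclear subunits summed to 5409, 4606, 4642 and 4518 CPM in liver GOF, against 6584, 5159, 5303 and 4693 CPM in liver control. The groups overlapped here too, since GOF B exceeded 3 of the controls, and again all 4 GOF libraries lay below their own letter, at 0.822, 0.893, 0.875 and 0.963 of it. By complex, the summed level of complex I was 1382 ± 151 CPM in GOF and 1611 ± 252 CPM in control, and that of complex IV 1101 ± 134 and 1311 ± 234 CPM (SD, n = 4 each). Complex III summed to 552 ± 41.1 CPM in GOF and 609 ± 68.7 CPM in control, and complex V to 1759 ± 89.9 and 1903 ± 259 CPM. Without control E, which held the most mitochondrially encoded reads, the log2 ratio of the mean mitochondrial sums, GOF over control, was 0.02, against -0.20 with all libraries. That ratio kept GOF E, the GOF library with the highest mitochondrial sum, and so left it without the control of its letter. Pairs B, F and G, which do not involve these libraries, stood at 0.95, 0.874 and 0.821. The sums were not tested, because the members were chosen with results of these data known.

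**Figure D2:**
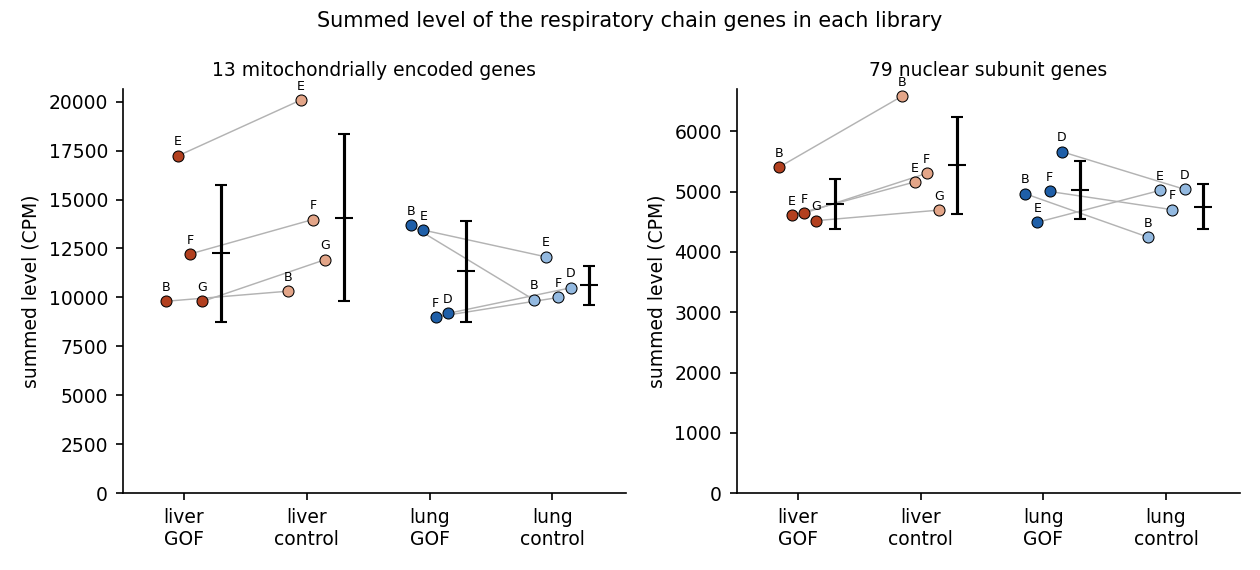
Summed level (CPM) in each library of the 13 mitochondrially encoded genes (left) and the 79 nuclear subunit genes (right); points are libraries with their letters, grey lines join the same letter within a tissue, and bars give the mean ± SD of 4 libraries. In liver every line climbs toward the control, while in lung the lines go both ways.

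Gene by gene, 90 members passed the filter on low counts in liver. By edgeR's quasi-likelihood test with Benjamini-Hochberg adjustment, 0 of the 90 were called in either direction at an adjusted p threshold of 0.05, beside 0.0321% of all 15555 tested entries called higher and 0% called lower. DESeq2 and limma voom called 0 members as well, and 8 of the 90 members had an unadjusted p under 0.05, as did 1010 of all tested entries. The fold change was below 0 for 78 of the 90 members, beside 50.3% of all tested entries, and the median log2 fold change was -0.22 for members and -0.0022 for all tested entries. Genes of a library can move together, so counts over members, here and below, are not counts of separate observations. The median was -0.23 for the 36 nuclear genes of complex I, -0.14 for the 8 of complex III, -0.27 for 16 of complex IV, -0.15 for 14 of complex V and -0.28 for 9 mitochondrially encoded genes. With 3 other ways of scaling the libraries, 78 or 79 of the 90 members were below 0. Without control B, the control library with the highest nuclear sum, the median over 91 members was -0.12, with GOF B kept. With the letter fitted as a block and both B libraries left out, the median was -0.17 over 90 members.

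The 3 members with the smallest p on the lower side were Uqcr11, Ndufa8 and Ndufa12. Uqcr11, a small subunit of complex III, had 16.04, 19.7, 16.8 and 13.9 CPM in liver GOF B, E, F and G, against 32.6, 24.3, 20.4 and 20.7 CPM in liver control. All GOF libraries lay below all controls, and its log2 fold change was -0.56 (SE 0.195, edgeR, Benjamini-Hochberg adjusted p = 0.643). Ndufa8, an accessory subunit of complex I, had 100.5, 80.3, 97.6 and 71.2 CPM in liver GOF, against 151, 108, 130.4 and 95.1 CPM in liver control. Its groups overlapped by control G alone, and the log2 fold change was -0.46 (SE 0.172, edgeR, Benjamini-Hochberg adjusted p = 0.68). Ndufa12, another accessory subunit of complex I, had 6.56, 4.91, 4.24 and 3.88 CPM in liver GOF, against 10.1, 9.05, 8.48 and 5.79 CPM in liver control. Here the groups overlapped by GOF B and control G, with a log2 fold change of -0.77 (SE 0.293, edgeR, Benjamini-Hochberg adjusted p = 0.711). On the higher side, Atp5g1 and Atp5sl were among the members with the smallest p, with log2 fold changes of 0.40 and 0.23.

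Taken in pairs of the same letter, the liver shift was more regular than the group means show. All 4 GOF libraries lay below the control of their letter for 39 of 90 members, which is 43.3% of them, beside 11.5% of all tested entries. They lay above it for 1 member. As members can move together, these shares rest on 4 pairs and not on 90 separate observations. Among the 74 nuclear subunits tested, 32 were lower in every pair, and with the assembly factors and other matches the share was 40.7% lower and 1.23% higher. Among the 9 mitochondrially encoded genes 6 were lower in every pair, or 66.7%, namely mt-Cytb, mt-Nd1, mt-Nd2, mt-Nd4, mt-Nd5 and mt-Nd6. By pair, 74 of 90 members were lower in GOF in pair B, 73 in pair E, 78 in pair F and 57 in pair G. Groups that did not overlap at all, with every GOF library below every control, were found for 5 of 90 members, or 5.56%, beside 2.27% of all tested entries, and every GOF library above every control for 0, beside 2.54%.

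With the replicate letter as a block, 2 members fell in liver GOF by edgeR's quasi-likelihood test and none rose, beside 1.54% of all tested entries called higher and 1.04% called lower. Ndufa8 had a blocked log2 fold change of -0.45 (SE 0.0881, edgeR, Benjamini-Hochberg adjusted p = 0.0204). The other was mt-Nd2, a core membrane subunit of complex I. mt-Nd2 had 548, 1315, 882 and 606 CPM in liver GOF B, E, F and G, against 684, 1684, 1095 and 893 CPM in liver control. The range was wide in both groups and the groups overlapped, yet every GOF library lay below its own letter, and the blocked log2 fold change was -0.38 (SE 0.0799, edgeR, Benjamini-Hochberg adjusted p = 0.0315). The next members in the blocked fit were mt-Nd1 at -0.32 (SE 0.0801, edgeR, Benjamini-Hochberg adjusted p = 0.0617) and mt-Nd4 at -0.29 (SE 0.0756, edgeR, Benjamini-Hochberg adjusted p = 0.0718). In the fit without a block, mt-Nd2 had a log2 fold change of -0.37 (SE 0.33, edgeR, Benjamini-Hochberg adjusted p = 0.928). It was -0.08 without control E, when GOF E, the highest GOF library for this gene, was kept. The call of Ndufa8 was lost with any 1 pair left out, and mt-Nd2 kept its call only without pair B. For Ndufa8, GOF stood at 0.668, 0.747, 0.749 and 0.748 of control in pairs B, E, F and G. Leaving out 1 pair in turn gave Ndufa8 an edgeR adjusted p of 0.0546 to 0.0844, and mt-Nd2 0.042 without pair B but 0.0927 to 0.0989 without any of the others. In the authors' deposited table for liver, 0 of 88 members with an adjusted p were under 0.05, the smallest being 0.439 for Ndufa12.

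Markers of other cells moved along in part. The hepatocyte markers summed to 1823, 742, 1187 and 903 CPM in liver GOF B, E, F and G, against 4028, 922, 2023 and 850 CPM in liver control, which is lower in pairs B, E and F and not in G. Pair G was also the one in which the nuclear subunits came closest to the control, whereas its mitochondrially encoded sum was the lowest of the 4 ratios. The fold change of the hepatocyte markers, GOF over control, was below 0 for 14 of 15 genes, with a median of -0.91. The cardiomyocyte markers, 10 genes that stood at low levels, summed to 13.2 to 19.8 CPM in liver GOF and 21.1 to 50.1 CPM in liver control, and the mural cell markers to 53.6 to 107 CPM in liver GOF and 67.5 to 217 CPM in liver control. Other lists differed. The alveolar type 2 markers summed to 162 to 188 CPM in liver GOF and 145 to 159 CPM in liver control, without overlap. Genes of this list did not move together. In the blocked fit, Abca3 had a log2 fold change of 0.19 (SE 0.0844). Lamp3 stood at -0.21 (SE 0.943), Slc34a2 at -1.23 (SE 1.01), Sftpa1 at -0.61 (SE 2.33) and Sftpd at -0.77 (SE 2.51). None of them was called. The endothelial and leukocyte sums were lower in GOF in 1 pair each. The stellate cell and fibroblast sum was lower in 2 pairs, and the airway epithelium and the platelet and red cell sums in 3 each. In the blocked fit, the hepatocyte genes Ahsg and Ttr were called lower, at log2 fold changes of -0.77 and -0.94. So were Tnni3 of the cardiomyocyte list at -1.25 and Dcn of the fibroblast list at -0.94. Abcc9 of the mural list was called higher, at 1.43. Each had an edgeR, Benjamini-Hochberg adjusted p between 0.00604 and 0.0463. Of all tested entries, 1.54% were called higher and 1.04% lower. Myl4, also a cardiomyocyte marker, stood at 0.017. The part of these cells in the shift was not tested.

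Within the mitochondrially encoded set, mt-Co1 took a slightly larger share of the reads in GOF livers. The share was 57.2%, 52.2%, 53.5% and 52.7% in liver GOF B, E, F and G, against 53.1%, 49.9%, 50.7% and 49.1% in liver control. It was higher in GOF in all 4 pairs, although the groups overlapped. In lung, the share was 49.6%, 47.3%, 46.5% and 47.0% in GOF B, E, F and D, against 47.2%, 46.5%, 44.6% and 48.1% in control, and was lower in GOF in pair D only.

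**Figure D3:**
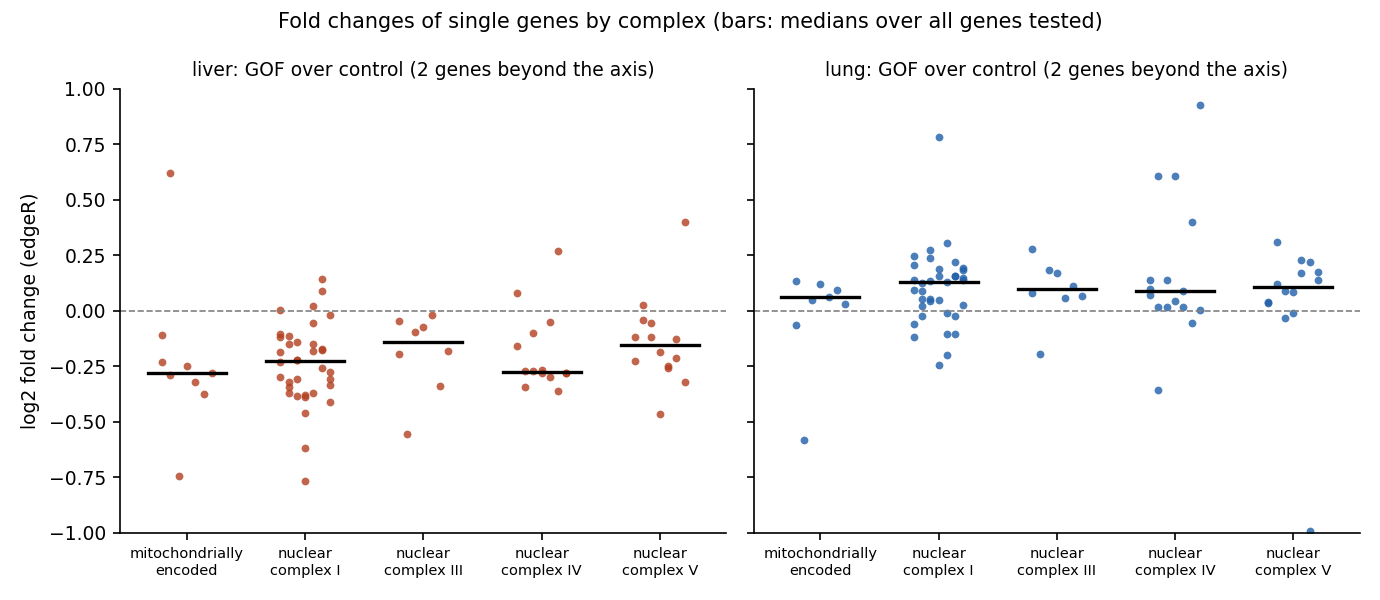
Log2 fold change, GOF over control, of each tested subunit gene by group of genes, in liver (left) and lung (right); bars are medians over all tested genes of a group, and 2 genes per tissue lie beyond the axis. Most liver points lie below 0 in all 5 groups of genes, and most lung points lie above it.

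In lung endothelium the members lay slightly higher in GOF than in control, none was called, and the summed levels went both ways. The mitochondrially encoded members summed to 13680, 13440, 9000 and 9185 CPM in lung GOF B, E, F and D, against 9881, 12070, 9998 and 10490 CPM in lung control. GOF was higher in pairs B and E and lower in F and D. The nuclear subunits summed to 4966, 4491, 5002 and 5662 CPM in lung GOF, against 4247, 5019, 4700 and 5038 CPM in lung control, and here only pair E was lower in GOF. Of 91 members tested, 0 were called by edgeR's quasi-likelihood test, beside 0% of all 15641 tested entries in each direction. DESeq2 and limma voom called 0 members too, and 1 member had an unadjusted p under 0.05, mt-Co2, which had most of its lung reads in GOF D. With the block, 0 members were called beside 0.00639% of all entries higher and 0.0128% lower.

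Small positive values were the rule among the lung members. The fold change was below 0 for 18 of 91 members, beside 49% of all tested entries, and the median log2 fold change was 0.10, against 0.0063 over all tested entries. Without lung GOF D this median was 0.029, with 32 of 93 members below 0, without lung control B it was 0.058, and without lung GOF E it was 0.17. A member lay higher in GOF in every same-letter pair in 7 of 91 cases, or 7.69%, beside 7.05% of all tested entries, a share near the background. The share was 8.54% among the nuclear members tested. The 7 were Atp5f1, Atp5h, Cox4nb, Cox6a2, Cox7c, Ndufa3 and Uqcrh. Lower in every pair were 2 members, or 2.2%, beside 7.55% of all tested entries, namely Atp5l and Ndufs1, both nuclear (2.44% of the nuclear members tested). No member had groups without overlap, beside 1.17% of all tested entries with GOF higher and 0.857% with GOF lower. Pair E decided the first count: without it, 35 members were higher in every remaining pair. In that pair 60 of 91 members were lower in GOF, against 22 to 32 in each of the others.

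Markers of other cells in lung went both ways. The leukocyte markers summed to 601 to 2078 CPM in lung GOF and 416 to 2253 CPM in lung control, and the fold change was above 0 for all 9 that were tested of the 10, with a median of 0.46. For the cardiomyocyte markers, all 9 tested genes were above 0 as well, with a median of 0.55 and sums of 27.7 to 60.4 CPM in lung GOF and 24.9 to 36.5 CPM in lung control. The fold change was above 0 for all 9 tested alveolar type 2 genes (median 0.15), for 7 of 10 stellate cell and fibroblast genes (median 0.42) and for 8 of 10 mural cell genes (median 0.13). It was below 0 for 5 of 10 platelet and red cell genes (median -0.12), 4 of 7 airway epithelium genes (median -0.0092) and 10 of 12 endothelial genes (median -0.11). The part of these cells in the lung values was not tested.

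No single lung member passed the test. Cox6a2, which had the smallest p on the higher side together with mt-Co2 and Ndufa11, had 5.31, 1.47, 3.73 and 9.65 CPM in lung GOF B, E, F and D, against 1.40, 0, 1.604 and 3.70 CPM in lung control. It was higher in GOF in every pair, the groups overlapped, and the log2 fold change was 1.604 (SE 1.0, edgeR, Benjamini-Hochberg adjusted p = 1). Ndufa11, a membrane subunit of complex I, had a log2 fold change of 0.28 (SE 0.188). On the lower side stood Atp5l, subunit g of the ATP synthase, at -0.99 (SE 0.772), Ndufs1 at -0.20 (SE 0.19) and Uqcr11 at -0.19 (SE 0.213), each with an edgeR, Benjamini-Hochberg adjusted p of 1. In the authors' deposited table for lung, 0 of 95 members were under 0.05.

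**Figure D4:**
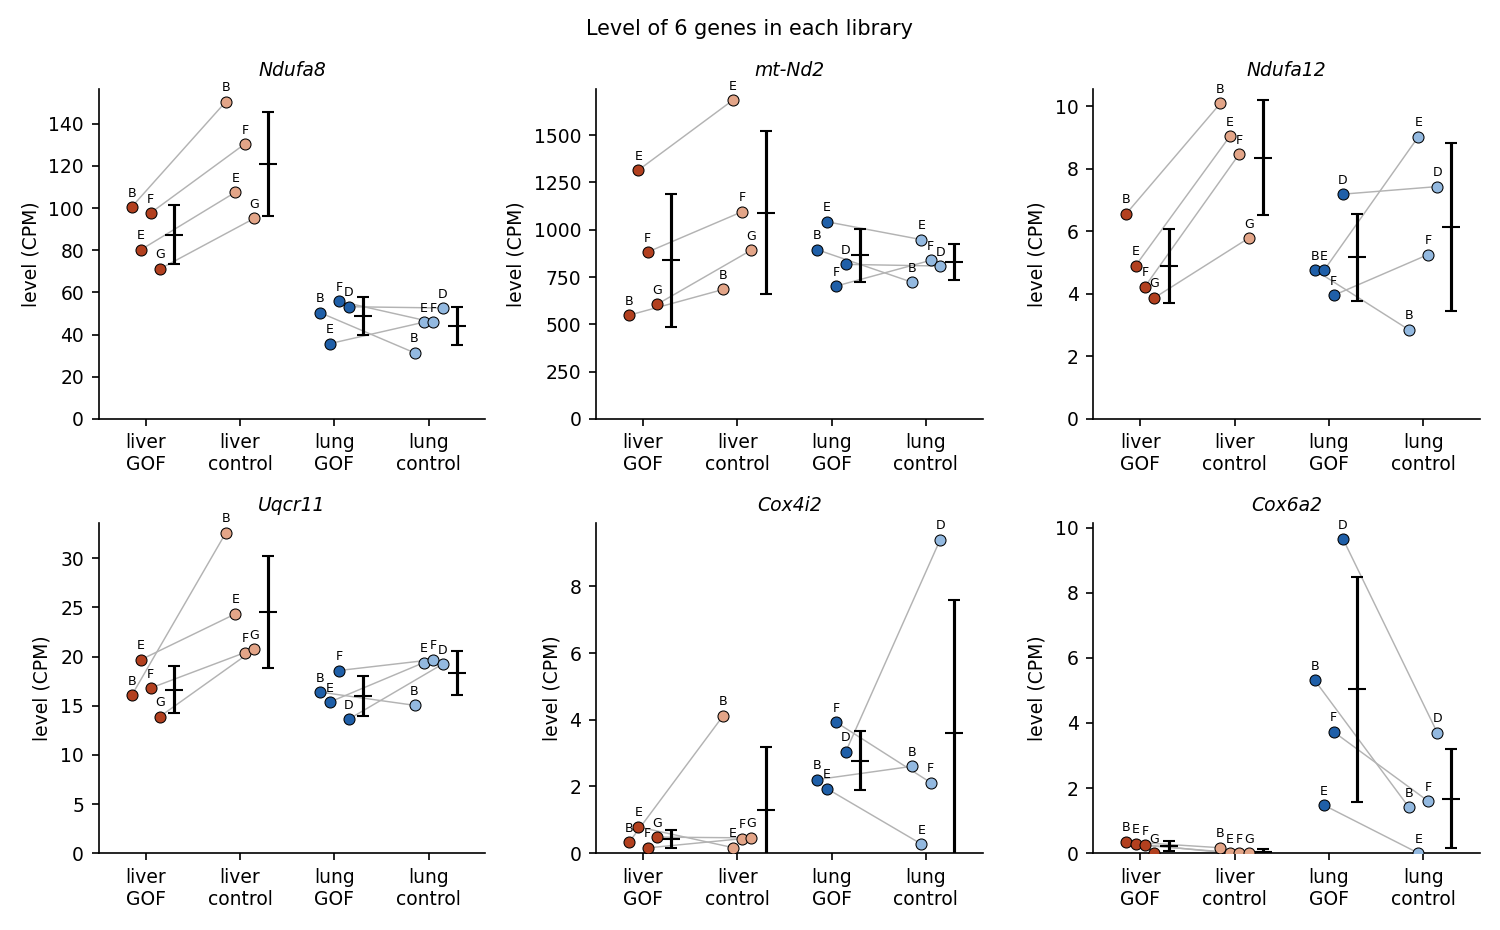
Level (CPM) of 6 genes in each library; points are libraries with their letters, grey lines join the same letter within a tissue, and bars give the mean ± SD of 4 libraries, cut off at 0 where they would pass it. Ndufa8 and mt-Nd2 climb toward the control in every liver pair, and Cox6a2 stands above 1 CPM in all 4 lung GOF libraries and below 0.4 CPM in all liver libraries.

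Whether the genotype effect differed between the tissues was tested as the difference of the log2 fold changes, lung minus liver, over all 16 libraries. Of 93 members tested, 0 were called by edgeR's quasi-likelihood test, beside 0% of all 17536 tested entries on the positive and 0.0057% on the negative side. DESeq2, limma voom and the fit with the letters nested in tissue as a block called 0 members, beside 0.154% of all entries on the positive and 0.336% on the negative side under the block, and 3 members had an unadjusted p under 0.05. The difference was above 0 for 82 of the 93 members, beside 50.7% of all tested entries, with a median of 0.34 against 0.0072. Without liver control B the median was 0.23, 17 members were below 0, and 0 had an unadjusted p under 0.05. This comparison uses the same libraries as both single-tissue comparisons and is no separate evidence of either. The 3 smallest p on the positive side belonged to subunits of complex I and V. Ndufa3 differed by 0.61 (SE 0.261, edgeR, Benjamini-Hochberg adjusted p = 0.858), Ndufa8 by 0.62 (SE 0.273, edgeR, Benjamini-Hochberg adjusted p = 0.864) and Atp5f1, the b subunit of the ATP synthase stalk, by 0.44 (SE 0.197, edgeR, Benjamini-Hochberg adjusted p = 0.865). On the negative side stood Cox8b, Atp5l and Atp5g2, at -6.25 (SE 3.59), -0.87 (SE 1.33) and -2.45 (SE 3.10), 3 genes with few reads in most libraries.

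Between the organs, Ndufa8 was the member called in both genotypes, lower in lung than in liver. It had 50.4, 35.7, 55.9 and 53.2 CPM in lung GOF B, E, F and D, against 100.5, 80.3, 97.6 and 71.2 CPM in liver GOF B, E, F and G. In the controls it had 31.4, 45.9, 45.8 and 52.6 CPM in lung, against 151, 108, 130.4 and 95.1 CPM in liver. Every lung library lay below every liver library in both genotypes. The log2 fold change, lung over liver, was -0.83 in GOF (SE 0.182, edgeR, Benjamini-Hochberg adjusted p = 0.00672) and -1.46 in control (SE 0.201, edgeR, Benjamini-Hochberg adjusted p = 0.000416). Ndufa8 kept this call under all 18 alternatives in each genotype, with values of -0.98 to -0.70 in GOF and -1.66 to -1.31 in control. None of its windows occurred in another annotated transcript. A block on the letters shared by both organs used libraries B, E and F alone. Whether a letter marks the same animal in both organs is not stated. In that fit Ndufa8 was the only member called in either genotype, beside 7.88% of all entries called higher and 4.7% lower in GOF and 7.86% and 5.32% in control.

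Lung GOF against liver GOF showed 4 called members among 90 tested, 3 higher and 1 lower, beside 14.5% of all 15905 tested entries called higher and 10.8% called lower. Those higher in lung were the isoform genes Cox6a2 and Cox4i2, and Ndufa11. Cox6a2 had 0.352, 0.286, 0.238 and 0 CPM in liver GOF B, E, F and G, far under the lung GOF values given above, and its log2 fold change was 4.53 (SE 1.01). Cox4i2 had 2.21, 1.94, 3.92 and 3.04 CPM in lung GOF, against 0.32, 0.788, 0.158 and 0.481 CPM in liver GOF, with no overlap and a log2 fold change of 2.67 (SE 0.761). Both genes passed the filter on low counts through their lung libraries alone, so their fold changes are given as a description, and 2 of the 4 calls rest on such genes. Ndufa11 had 44.2, 40.2, 53.0 and 54.9 CPM in lung GOF, against 38.04, 27.4, 37.7 and 28.8 CPM in liver GOF, again with no overlap, and a log2 fold change of 0.56 (SE 0.177, edgeR, Benjamini-Hochberg adjusted p = 0.0407). Groups without overlap, lung GOF higher, were seen for 6 of 90 members, or 6.67%, beside 16.6% of all tested entries. With lung GOF lower they were seen for 2, or 2.22%, beside 14.2%. Cox4i2 lost its call under 5 of 18 alternatives, Ndufa11 under 9 and Cox6a2 under the block alone. The median over the members was 0.07, against -0.03 over all tested entries, and 28 of 90 were below 0, which became 48 of 90 when libraries were scaled by their totals alone.

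Other cells stood beside the 2 isoform genes. The mural cell markers, pericyte and smooth muscle genes, summed to 230 to 409 CPM in lung GOF and 53.6 to 107 CPM in liver GOF. The cardiomyocyte markers, genes of a cell that lines pulmonary veins in mice, summed to 27.7 to 60.4 CPM in lung GOF and 13.2 to 19.8 CPM in liver GOF. Single genes of this list differed. Tnni3 was lower in lung GOF at a log2 fold change of -2.54 (SE 0.401). Actc1 was higher at 7.01 (SE 1.09) and Myl4 at 1.77 (SE 0.361), and the other tested genes of the list were above 0. In the controls, Tnni3 was lower in lung at -4.42 (SE 0.402). In the controls, the liver library with the most mural marker counts, B at 217 CPM, was also the one with the most Cox4i2, 4.12 CPM against at most 0.458 in the other liver controls. In lung control, D had the most Cox4i2, 9.39 CPM, at a mural sum of 309.5 CPM. Lung control B had the highest mural sum, 416 CPM, with 2.60 CPM of Cox4i2, and E had 319 and 0.276 CPM. In lung GOF, F was highest in both, at 409 and 3.92 CPM. Lung GOF D had the lowest mural sum, 230 CPM, with 3.04 CPM of Cox4i2. The part of these cells in the levels of Cox4i2 and Cox6a2 was not tested.

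Lung control against liver control gave 4 called members among 90 tested, 0 higher and 4 lower, beside 14% of all 15806 tested entries called higher and 11% called lower. Besides Ndufa8, these were Ndufb3 and Ndufa3, accessory subunits of complex I, and Cox6c of complex IV. Ndufb3 had 23.8, 35.1, 30.5 and 27.2 CPM in lung control B, E, F and D, against 48.5, 38.9, 45.2 and 40.4 CPM in liver control B, E, F and G. No values overlapped, and the log2 fold change was -0.57 (SE 0.17, edgeR, Benjamini-Hochberg adjusted p = 0.0328). Ndufa3 had 22.1, 29.3, 29.0 and 33.8 CPM in lung control, against 61.8, 41.0, 44.5 and 36.1 CPM in liver control, with no overlap and a log2 fold change of -0.68 (SE 0.207, edgeR, Benjamini-Hochberg adjusted p = 0.0347). Cox6c had 65.1, 75.2, 56.6 and 58.8 CPM in lung control, against 83.5, 94.96, 93.6 and 76.4 CPM in liver control, with no overlap and a log2 fold change of -0.44 (SE 0.146, edgeR, Benjamini-Hochberg adjusted p = 0.0486). Groups without overlap, lung lower, were seen for 10 of 90 members, or 11.1%, beside 14.1% of all tested entries. With lung higher they were seen for 0 members, beside 16.3% of all tested entries.

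The smaller organ differences were less firm than that of Ndufa8. Cox6c lost its call under 11 of 18 alternatives, Ndufb3 under 8 and Ndufa3 under 6. In lung control, 75 of 90 members were below liver control, beside 52.1% of all tested entries, with a median log2 fold change of -0.24 against -0.04 over all tested entries. Scaling by library totals alone called 9 members lower and moved the median of all tested entries to -0.15 and that of the members to -0.36. Without liver control B, 59 of 92 members were below 0 and their median was -0.13. Liver libraries carried hepatocyte transcripts that lung libraries almost lacked, 4.61 to 7.97 CPM in lung control against 850 to 4028 CPM in liver control, and their part in these differences was not tested. The 2 organ comparisons use different libraries from each other, but each shares its libraries with the genotype comparisons.

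**Figure D5:**
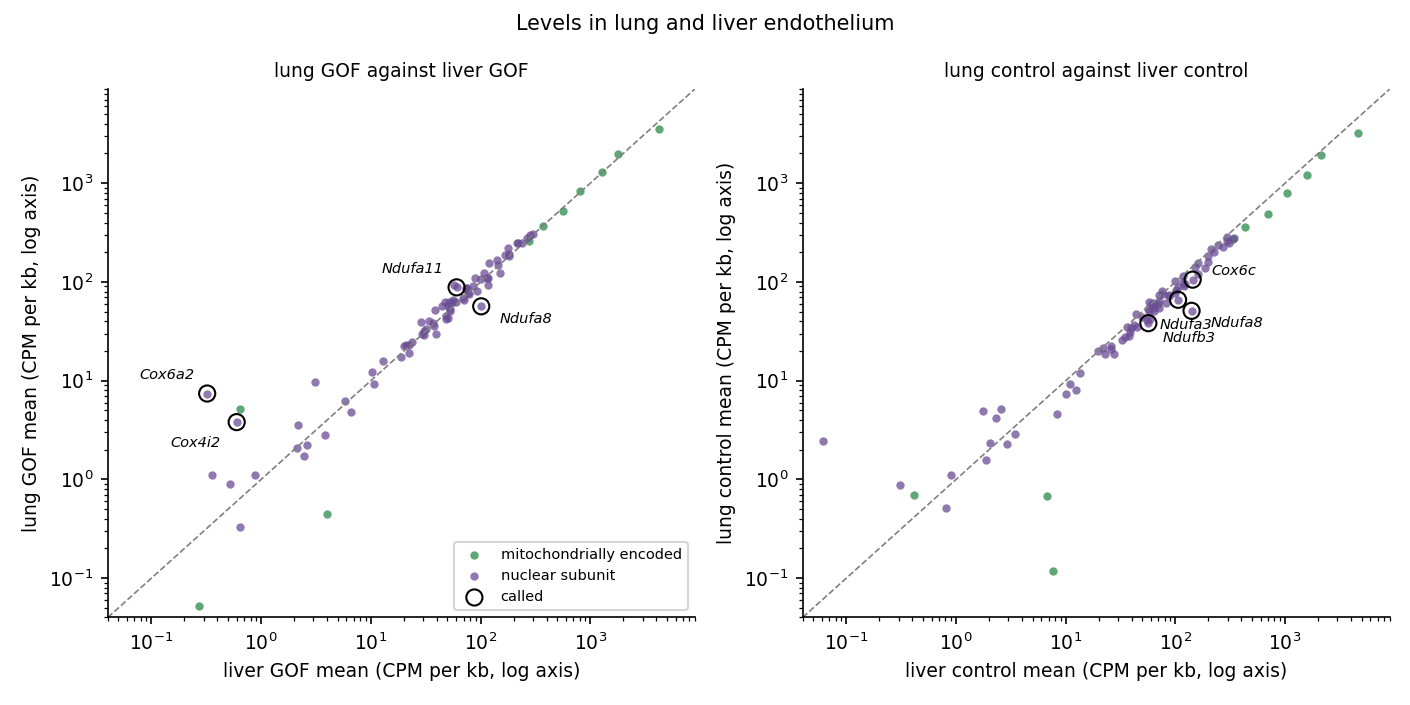
Group mean level (CPM per kb, log axes) in lung against liver, for GOF (left) and control (right), of mitochondrially encoded and nuclear subunit genes with over 0.05 CPM per kb in both; the dashed line marks equal levels and circles mark called members. Most points lie near the line, with Ndufa8 below it in both panels.

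To set sequence beside these differences, the promoters of the 4 complex I genes that were called between the organs are shown. Each is the 250 bases before the RefSeq gene start in GRCm38.p6, 5′ to 3′ in the direction of the gene. The deposited files use mm9, so these coordinates belong to the reference alone. Capitals mark a match to the binding motif of nuclear respiratory factor 1 (NRF1), a known activator of respiratory chain genes, which was searched as GCGCA directly followed by TGCGC.
Ndufa8, chr2:36049339-36049588, minus strand: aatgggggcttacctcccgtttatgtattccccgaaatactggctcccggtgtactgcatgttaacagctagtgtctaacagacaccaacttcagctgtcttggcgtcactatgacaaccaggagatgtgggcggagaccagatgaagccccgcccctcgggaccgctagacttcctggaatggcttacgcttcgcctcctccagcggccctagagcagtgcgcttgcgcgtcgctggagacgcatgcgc
Ndufb3, chr1:58586147-58586396, plus strand: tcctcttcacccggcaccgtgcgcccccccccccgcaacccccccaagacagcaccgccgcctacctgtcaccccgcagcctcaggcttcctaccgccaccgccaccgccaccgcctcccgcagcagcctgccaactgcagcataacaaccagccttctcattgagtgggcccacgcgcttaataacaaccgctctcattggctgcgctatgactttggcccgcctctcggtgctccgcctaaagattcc
Ndufa3, chr7:3617123-3617372, plus strand: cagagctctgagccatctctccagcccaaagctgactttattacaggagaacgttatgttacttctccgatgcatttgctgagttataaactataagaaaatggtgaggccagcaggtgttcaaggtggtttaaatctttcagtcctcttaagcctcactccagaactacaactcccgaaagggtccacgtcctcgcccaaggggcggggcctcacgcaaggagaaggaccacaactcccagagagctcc
Ndufa11, chr17:56717512-56717761, plus strand: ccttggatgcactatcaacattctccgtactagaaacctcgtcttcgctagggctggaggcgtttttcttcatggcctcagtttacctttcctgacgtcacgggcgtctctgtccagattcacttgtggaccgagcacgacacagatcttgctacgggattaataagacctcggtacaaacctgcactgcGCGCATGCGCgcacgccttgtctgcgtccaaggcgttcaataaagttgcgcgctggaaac

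Promoter entries were found for 68 of the 101 members and 27025 genes in all, and both strands were searched for 4 motifs. The NRF1 motif occurred in 5 of the 68 (7.35%), namely Atp5g2, Atp5k, Cox6a1, Ndufa11 and Ndufaf4, beside 0.877% of all promoters. CCGGAAG, the motif of GA-binding protein and other ETS factors, occurred in 12 members (17.6%) and 7.83% of all promoters. AAGGTCA, the motif of estrogen-related receptors, occurred in 5 members (7.35%) and 4.7% of all promoters, and AAGATGGC, that of YY1, in 1 member (1.47%) and 1.83% of all promoters. Of the 4 promoters printed, Ndufa11 alone held an exact match to any of these motifs. Near matches were not counted. The Ndufa8 promoter, for example, ends in acgcatgcgc, which differs from the searched NRF1 motif at its first base.

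Genes that work next to the respiratory chain were described from 6 lists. Between genotypes, no gene of any list was called in liver, in lung or in the difference between them by edgeR's quasi-likelihood test, with or without the block. In the list of complex II, cytochrome c and cytochrome c1, 0 of 6 genes were called in any comparison. In lung control against liver control, the list of assembly factors of complexes III to V and of ATP synthase regulators had 1 of 18 tested genes higher and 4 lower, beside 14% of all tested entries called higher and 11% lower. Lower in lung were Cox15, a heme A synthase for complex IV, at -0.73 (SE 0.197), the copper chaperones Cox17 at -0.60 (SE 0.167) and Sco1 at -0.95 (SE 0.296), and Atpif1, the inhibitor of the ATP synthase, at -1.01 (SE 0.21). Higher was Higd1a at 0.94 (SE 0.256). Among the genes of mitochondrial transcription, biogenesis and RNA stability, 2 of 20 were lower in lung control, Polg2, the accessory subunit of the mitochondrial DNA polymerase, at -1.68 (SE 0.34) and Hsd17b10 at -0.74 (SE 0.199), a share near that of all tested entries. The activators Nrf1, Gabpa, Esrra and Tfam were not called.

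The same lists in lung GOF against liver GOF gave 3 of 18 assembly genes lower, Cox15 at -0.60 (SE 0.189), Cox18 at -0.69 (SE 0.185) and Atpif1 at -0.73 (SE 0.232), and 0 higher, beside 14.5% of all tested entries called higher and 10.8% lower. Of the transcription and RNA genes, 4 of 20 were lower, Polg2 at -1.57 (SE 0.294), Elac2 at -0.67 (SE 0.22), Lrpprc, which stabilises mitochondrial messengers, at -0.64 (SE 0.161) and Hsd17b10 at -0.66 (SE 0.19). Idh3a, a subunit of the isocitrate dehydrogenase of the tricarboxylic acid cycle, was higher in lung in GOF at 0.46 (SE 0.149), with no other gene of the 12 on its list called. In the controls it was higher in lung at 0.51 (SE 0.163), and its partner subunit Idh3b was lower at -0.49 (SE 0.133). Of the mitochondrial carriers and pores, the ATP carrier Slc25a4 was lower in lung control at -0.49 (SE 0.13), and the outer membrane channel Vdac1 was higher in lung GOF at 0.52 (SE 0.165). Ucp2, an inner membrane carrier of the uncoupling protein family, averaged 294 ± 69.6 CPM in lung GOF and 148 ± 21.0 CPM in liver GOF, and 330.3 ± 76.9 CPM in lung control and 141 ± 16.2 CPM in liver control (SD, n = 4 each). Its log2 fold change, lung over liver, was 1.001 in GOF (SE 0.195, edgeR, Benjamini-Hochberg adjusted p = 0.00343) and 1.24 in control (SE 0.194, edgeR, Benjamini-Hochberg adjusted p = 0.000882). Of the 15 hypoxia response genes, 4 were higher and 1 lower in lung control, led by Vegfa at 3.51 (SE 0.301), and of 14 tested in GOF 4 were higher and 2 lower, Vegfa at 3.49 (SE 0.283). Vegfa is the growth factor that guides blood vessels to hypoxic tissue, and alveolar type 2 cells, whose markers were present in lung libraries, are known to make it. The part of these cells in the Vegfa values was not tested. Each call named from the 6 lists had an edgeR, Benjamini-Hochberg adjusted p between 1.12e-05 and 0.0464. With the letters shared by both organs as a block, in libraries B, E and F alone, Ucp2, Vegfa, Ankrd37 and Egln3 stayed called in both genotypes. Slc2a1 stayed called in GOF, and no other gene of the lists did.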

How the data were processed

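Endothelial cells of liver and lung of adult mice were taken by flow sorting for CD31, and libraries were made from 2 ng RNA and read as pairs of 100 bases, per the labels' protocols. The authors deposited 1 table per tissue of whole-number read counts per gene, not normalized, per the file headers. Reads were handled with HTSeq 0.6.1, TopHat2 2.0.11, Bowtie2 2.2.1 and SAMtools 0.1.19 on build mm9, and DESeq2 is listed as well, per the submitters' processing notes, which give no roles. The annotation, strand setting and treatment of multiply mapped reads were not stated. The authors' deposited table of each tissue's comparison gives a log2 fold change, GOF over control, and an adjusted p-value, per the file headers. The 16 deposited CPM columns were left aside.

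Each table held 37991 entries, of which 3750 share a symbol with another, besides a line of column sums that was dropped. Libraries total 22815467 to 37127150 counts, and a mean CPM carries an error from 4 libraries. The labels call the libraries biological samples without naming animals, so p-values measure the spread between these samples. Libraries of 1 group differed by more than sampling noise in every pair. Printed CPM levels use TMM factors over all 16 libraries (edgeR 4.0.16, R 4.3.3).

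Each of 5 comparisons was fitted with edgeR's quasi-likelihood test over all entries, with TMM factors within the comparison, filterByExpr at a minimum count of 10 and total of 15, a prior count of 0.125 and Benjamini-Hochberg adjustment at 0.05. The scripts were tested on simulated data. Named genes were the mitochondrially encoded members, those called or with the 3 smallest p in each direction, the isoform families and the core subunits, of which 1 is not reported here. Ctnnb1, the genes of the other lists and members of counts of 7 or fewer were named besides. Members and lists were chosen with earlier results of these data known. Alternatives were DESeq2 1.42.0, limma 3.58.1 voom, other scalings and filters, leaving out libraries and a block on the replicate letter. Between organs the block used letters B, E and F alone, and so fewer libraries per group. What a letter stands for is not stated in the labels. Within a tissue, deviations from the group mean correlated between libraries of the same letter at 0.256 to 0.465 in liver and 0.216 to 0.351 in lung over 17536 entries, against at most 0.0803 between other letters, so the letters were taken to pair the libraries. Windows of 100 bases were compared with GENCODE M21 transcripts and promoters taken from RefSeq (GRCm38.p6).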

Additional observations from a re-analysis of the deposited data

Results flagged for a closer look

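In 220 groups of 4 libraries, each gene or sum was checked for 1 library that stood apart by Dixon's criterion at the 95% level. A few percent of groups pass it by chance, and 29 did.

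Among the mitochondrially encoded members, the genes near 0 gave most of these. mt-Atp6 had 0.716 CPM in liver GOF E, against at most 0.0267 in the other liver GOF libraries, and 20.4 CPM in liver control E, against at most 0.26 in the other liver controls. mt-Co3 had 12.3 CPM in liver GOF E, against at most 0.294, and 20.1 CPM in liver control E, against at most 0.583. mt-Co2 had 10.8 CPM in lung GOF D, against at most 1.74, and mt-Nd3 had 0.861 CPM in the same library and no read in the other lung GOF libraries. Of the well counted genes, mt-Cytb had 2662 CPM in lung control E, against 2036 to 2073 in the other lung controls, and mt-Nd4 had 810.4 CPM there, against 617 to 646.

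Liver libraries lettered B stood high for nuclear subunits in both genotypes. In liver GOF B, the summed nuclear subunits reached 5409 CPM, against 4518 to 4642 in the other GOF livers. The sums of complexes I, III and V were 1606, 613 and 1893 CPM there, against at most 1340, 537 and 1728 CPM in the other GOF livers, Cox4i1 was 261 CPM against 174.5 to 186.5, and Cox7a2 92.98 CPM against 72.3 to 74.0. In liver control B, Cox4i1 was 295 CPM against 192 to 206 in the other liver controls, Cox8a 229 CPM against at most 158.5, Ndufa4 140 CPM against at most 120, Ndufv1 110.3 CPM against at most 85.3, Uqcrfs1 99.8 CPM against at most 70.6 and Cox4i2 4.12 CPM against at most 0.458. The same 2 libraries held the most hepatocyte marker counts of their groups, 1823 CPM in GOF B and 4028 CPM in control B.

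In lung control B, nuclear subunits stood low instead. They took 0.397% of all counts, against 0.469% to 0.475% in the other lung controls, and complexes I and III summed to 1167 and 478 CPM, against at least 1389 and 567 CPM. Uqcr11 had 15.04 CPM there, against 19.2 to 19.7. Rare forms made up the rest. Cox8b had 1.25 CPM in liver GOF E and 1.61 CPM in lung control B and no read in the other libraries of those groups. Atp5g2 had 0.765 CPM in lung GOF F and no read in the other lung GOF libraries, and Cox6a2 had 0.166 CPM, or 5 reads, in liver control B and no read in the other liver controls. Ndufa4l2 had 0 CPM in lung GOF E, against 1.35 to 1.41 in the other lung GOF libraries.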

How the results depend on the processing

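No member was called in lung GOF against lung control in any of 22 alternatives or in the difference between tissues in any of 26. In liver GOF against liver control, 20 of 22 alternatives called none. The replicate block called 2 members, and 1 with pair B left out of the block, so the liver calls depend on the pairing. In lung control against liver control, 4 members became 9 with library totals alone, 1 with the replicate block and 1 to 4 with 1 library left out. Without liver control F or lung control B 1 was called, and without liver control G, lung control F or lung control D 2 were. In lung GOF against liver GOF, 4 became 9 with DESeq2, 1 with the replicate block and 2 to 5 with 1 library left out, 2 without liver GOF F, liver GOF G or lung GOF F. Leaving out pairs was an alternative chosen after seeing the data. The number of members higher in every lung pair was then 14 without pair B, 35 without pair E, 12 without pair F and 7 without pair D, and 44 to 52 were lower in every remaining liver pair.

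The sign of several mitochondrially encoded genes, none of which was called in these fits, depended on single libraries. In liver, leaving out 1 library gave log2 fold changes of -0.297 to 0.104 for mt-Co1, -0.184 to 1.03 for mt-Co2, -5.57 to 3.26 for mt-Co3 and -0.505 to 0.027 for mt-Cytb. The positive end for mt-Co1, mt-Co3 and mt-Cytb came without control E, when GOF E of the same letter was kept. The negative end for mt-Co2 came without GOF G. In lung, leaving out 1 library gave -1.44 to 0.228 for mt-Co3, -0.0606 to 0.183 for mt-Cytb, -0.0358 to 0.146 for mt-Nd2, -0.0431 to 0.206 for mt-Nd4, -0.0369 to 0.108 for mt-Nd5 and -0.153 to 0.0818 for mt-Nd6. For mt-Co2 in liver, limma voom gave -0.245, the replicate block -0.035, and the block without pair E or G -0.49 or -0.683. In lung, the block without pair B gave -0.0506 for mt-Co1, -0.131 for mt-Cytb, -0.0317 for mt-Nd1, -0.0391 for mt-Nd2, -0.12 for mt-Nd4 and -0.0453 for mt-Nd5. The block without pair E gave 0.588 for mt-Co3 and -0.0636 for mt-Nd5, and the block without pair F 0.0543 for mt-Nd6. For the difference between tissues, limma voom gave 0.15 for Atp5l, and leaving out 1 library gave -6.89 to 0.352 for Cox8b. The cause of these reversals was not tested beyond the libraries named.

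Reads were present in every library for 84 of 101 members, some of them with few, and 4 libraries per group limit each comparison.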
